A study of Caenorhabditis elegans with 12 samples.

Results

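Small interfering RNAs (siRNAs) that target 9 genes of the siRNA amplification machinery of Caenorhabditis elegans are described here. The genes were chosen by name, as RNA-dependent RNA polymerases (ego-1, rrf-1 and rrf-3), mutator genes (mut-7, mut-14, mut-15 and mut-16) and cofactors of the polymerases (drh-3 and ekl-1). Each gene has an entry for siRNAs and an entry for 26G siRNAs in the deposited tables. The set is thus 18 of 75227 features, and 9 of the 19320 genes with siRNA or 26G siRNA entries.

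In worms, an RNA-dependent RNA polymerase copies a target transcript into many short antisense siRNAs. These load onto Argonaute proteins and can, but need not, lower the expression of the target. EGO-1 and RRF-1 make these secondary siRNAs in the germ line, and the mutator proteins assemble granules in which part of this amplification takes place. RRF-3 works with Dicer to make the 26G siRNAs that come first in some pathways. The transcripts of this machinery are themselves siRNA targets, and the values below are siRNAs antisense to these genes, not the mRNA or protein of the genes.

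The samples were whole adult animals grown at 20 °C. In the ATTF-6-depleted animals the endogenous DNA-binding protein ATTF-6 carried a degron (GFP::tev::aid::attf-6 on chromosome I). These animals and their control also carried the chromosome II transgene wrdSi51, in which the germline promoter of mex-5 drives TIR1, linked by F2A to mTagBFP2::AID*::NLS, with the tbb-2 3′ UTR. Both strains were moved in the last larval stage onto 4 mM auxin, under which TIR1 directs proteins with the degron to degradation in the cells that make it. Loss in somatic cells was therefore not part of the design, and the study describes an atrophied germ line after depletion. In the deletion experiment, the ΔPeak1 strain lacked 183 bases (chromosome IV, 13709294 to 13709476) and the ΔPeak2 strain lacked 594 bases (chromosome IV, 14387943 to 14388536) at ATTF-6 binding sites, and their control was the parent, all 3 with attf-6::3xflag on chromosome I. The labels name no build for these coordinates, and they list no treatment for these strains although the shared protocol text describes auxin. Each of these 5 groups had 2 libraries made with the polyphosphatase PIR-1, which lets RNAs with a 5′ triphosphate be cloned. The depleted and control strains also had 1 library each made with a phosphatase and a pyrophosphatase (CIP-TAP), meant to clone capped RNAs.

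A level is given as a normalised count, the deposited count divided by the authors' denominator of mapped reads and multiplied by 1000000. Counts summed to between 15454564 and 31931330 per PIR-1 library, and to 6352629 in the depleted and 11832193 in the control CIP-TAP library. The 9 genes together held between 1591 and 14654 siRNA counts per PIR-1 library. Libraries of a group differed by more than sampling noise, and the study calls those of the depletion experiment biological replicates. The labels do not say whether the libraries came from separate cultures, so the p-values measure only the spread between them.

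All 9 genes are protein-coding genes of the class that the tables call CSR,Gender_neutral, which holds 2797 siRNA target genes and is not defined in them. Positions are from the Ensembl annotation of WBcel235, release 115. Of the polymerases, ego-1 lies on the minus strand of chromosome I (7650341 to 7656338) and rrf-1 is its neighbour on the same strand (7643431 to 7649777), with 563 bases between them. The third polymerase gene, rrf-3, lies on the plus strand of chromosome II (8162465 to 8168651), and its exon overlaps T05C12.11, on the other strand, by 37 bases. Of the mutator genes, mut-16 (chromosome I, 10080159 to 10085765) and mut-15 (chromosome V, 15002543 to 15005067) lie on the plus strand. The other mutator genes, mut-7 (chromosome III, 9539031 to 9542380) and mut-14 (chromosome V, 5658713 to 5660704), lie on the minus strand. The cofactor genes drh-3 (7820831 to 7826378) and ekl-1 (7095486 to 7098400) lie on the plus strand of chromosome I. None of the 9 lies on chromosome IV, where both deletions are. Near-identical reads shared between genes can be split, but 107 of the 108 member siRNA counts were whole numbers and all 108 of the 26G counts were. The exception was mut-7 in depleted library 1.

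Depletion of ATTF-6 was accompanied by lower siRNA levels at 8 of the 9 genes, between 2.71-fold (mut-16) and 6.33-fold (mut-15). The tests were edgeR's quasi-likelihood test over all 33715 features, with p-values adjusted by the Benjamini-Hochberg method. The remaining gene, ekl-1, passed in neither direction. Of all 12778 siRNA genes tested, 56.0% were lower (all features, 54.6%), and 91.9% of the 2794 tested genes of the class CSR,Gender_neutral were. The share among the 9 genes, 88.9%, is therefore close to that of their own class. In these bulk libraries, fewer cells of a type and less RNA per cell cannot be told apart.

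The polymerase gene ego-1, which is needed for germline development, had the most siRNA counts of the 9 in control animals, without correction for length. Its normalised siRNA counts were 76.2 and 58.8 in depleted animals, against 364 and 338 in control animals. The depleted libraries lay far below the control libraries, with a log2 fold change of -2.38 ± 0.19 (SE, n = 2 each, adjusted p = 2.469e-19 by edgeR). The neighbouring gene rrf-1, whose polymerase acts in soma and germ line, had 47.7 and 32.9 normalised siRNA counts in depleted animals and 258 and 236 in control animals. This was a fall of similar size, with a log2 fold change of -2.61 ± 0.27 (SE, n = 2 each, adjusted p = 5.934e-22 by edgeR). For rrf-3, which makes 26G siRNAs, the normalised siRNA counts were 44.2 and 33.6 in depleted animals, against 186 and 144 in control animals. Its fall was the smallest of the 3 polymerase genes, with a log2 fold change of -2.08 ± 0.27 (SE, n = 2 each, adjusted p = 1.212e-14 by edgeR).

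Among the mutator genes, mut-15, which encodes a component of the mutator granules, had 38.2 and 23.2 normalised siRNA counts in depleted animals and 202 and 187 in control animals. The fall was 6.33-fold, with a log2 fold change of -2.66 ± 0.36 (SE, n = 2 each, adjusted p = 4.369e-22 by edgeR). For mut-14, a DEAD-box RNA helicase gene, the counts were 51.0 and 42.6 in depleted animals, against 186 and 166 in control animals (log2 fold change -1.91 ± 0.15, SE, n = 2 each, adjusted p = 8.151e-13 by edgeR). The exonuclease-domain gene mut-7 had 86.2 and 53.7 in depleted animals and 246 and 205 in control animals. Its log2 fold change was -1.68 ± 0.36 (SE, n = 2 each, adjusted p = 1.316e-10 by edgeR). The smallest fall of the 4 mutator genes was that of mut-16, whose protein is the scaffold of the granules, with 72.7 and 56.4 in depleted animals, against 182 and 169 in control animals. Its log2 fold change was -1.44 ± 0.19 (SE, n = 2 each, adjusted p = 4.69e-08 by edgeR). For all 4 mutator genes both depleted libraries lay below both control libraries.

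The cofactor genes differed from each other. For drh-3, which encodes a Dicer-related helicase that works with the polymerases, the normalised siRNA counts were 30.4 and 26.6 in depleted animals, against 178 and 150.1 in control animals. The libraries did not overlap, and the log2 fold change was -2.52 ± 0.15 (SE, n = 2 each, adjusted p = 5.437e-20 by edgeR). For ekl-1, a Tudor-domain gene of the same pathway, the counts were 78.7 and 57.1 in depleted animals, against 63.5 and 54.4 in control animals. These libraries overlapped, and the log2 fold change of 0.20 ± 0.25 (SE, n = 2 each) did not pass the test (adjusted p = 0.486 by edgeR). Both depleted libraries lay below both control libraries for 8 of the 9 genes, and for 64.2% of all siRNA genes tested.

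**Figure D1:**
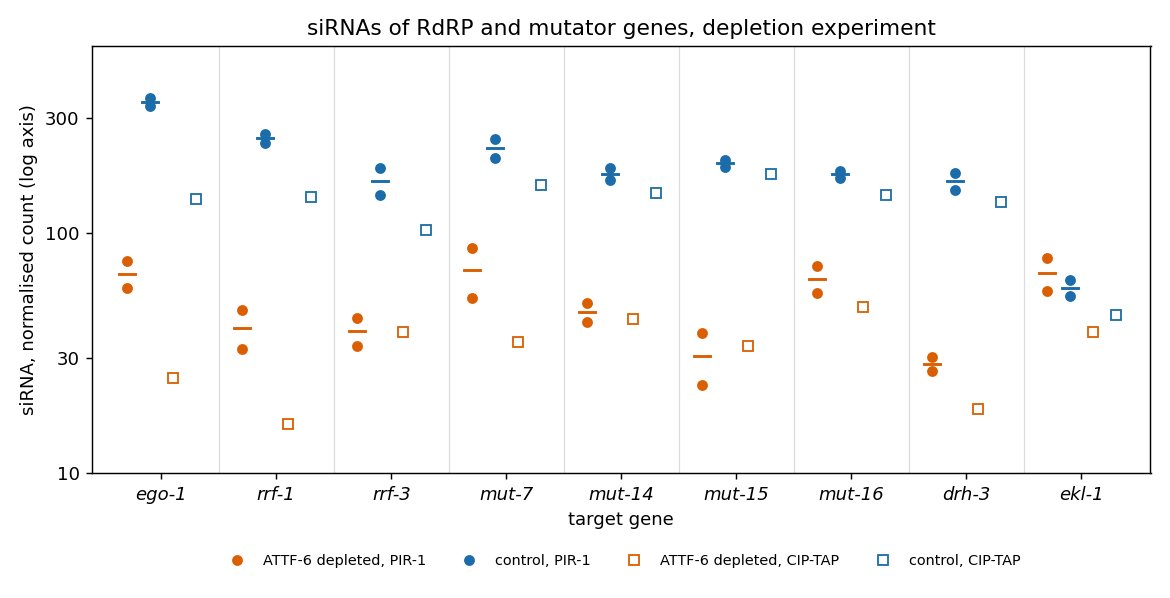
Normalised siRNA counts (log axis) of the 9 genes in ATTF-6-depleted and control libraries, with filled circles for the 2 PIR-1 libraries of each group, bars for their means and open squares for the single CIP-TAP libraries. The depleted PIR-1 libraries lie below the control libraries at 8 genes, and overlap them at ekl-1 (78.7 and 57.1 against 63.5 and 54.4).

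Because levels between genes can be compared only per length, normalised counts were also divided by the longest transcript of each gene in kilobases. In control animals the highest siRNA levels per kilobase were those of mut-14 (101 ± 8.28, SD, n = 2) and mut-15 (94.7 ± 4.92), which do not differ beyond their spread. They were followed by mut-7 (75.6 ± 9.81) and ego-1 (66.3 ± 3.58), then mut-16 (51.5 ± 2.71), rrf-1 (49.2 ± 3.06) and drh-3 (46.7 ± 5.57), neighbours that again lie within their spread. The lowest were rrf-3 (29.8 ± 5.36) and ekl-1 (27.5 ± 3.01), also within their spread. All 9 lay between percentiles 76.2 and 94.4 of the 16768 siRNA genes detected in control animals, whose median was 3.58 per kilobase. In depleted animals the mean level per kilobase of ekl-1 (31.7 ± 7.12) was above that of the other 8, which ran from 7.04 ± 1.35 (rrf-3) to 26.8 ± 3.40 (mut-14). However, ekl-1 was not separated beyond the spread from mut-14 or from mut-7 (23.5 ± 7.70).

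**Figure D2:**
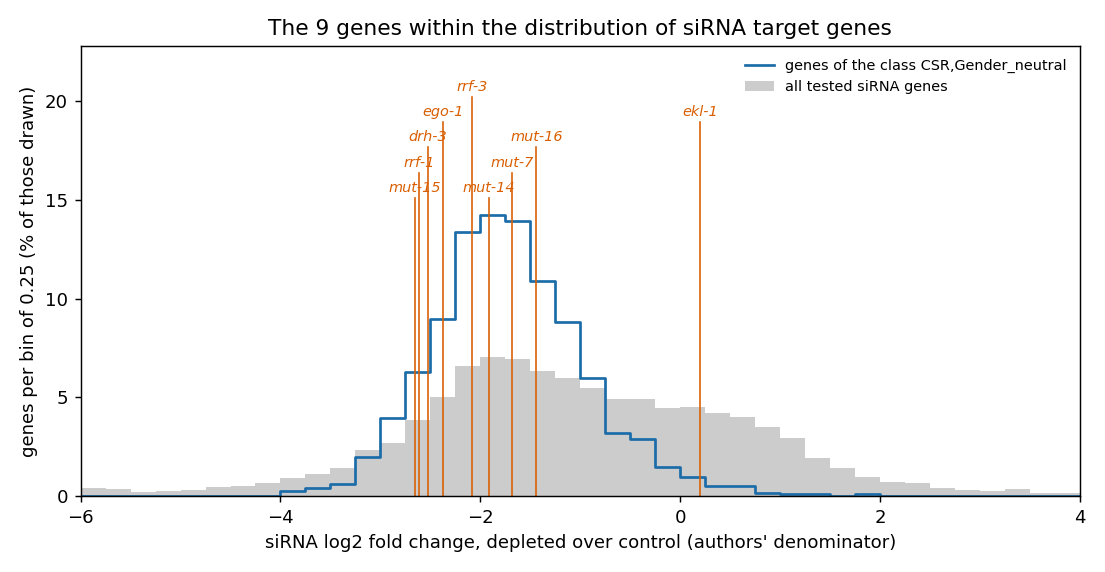
Distribution of the siRNA log2 fold change, depleted over control, in bins of 0.25, for all tested siRNA genes (grey) and for the class CSR,Gender_neutral (blue line), with the 9 genes as vertical lines. The axis leaves out 203 genes of all and 1 of the class; 8 of the lines lie between -2.66 and -1.44 within the body of the class, and ekl-1 lies at 0.20.

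Within their class, the 8 genes were spread over the distribution of changes, and ekl-1 stood near its upper end. A lower log2 fold change than that of mut-15 was found for 9.06% of the class, and a lower one than that of mut-16 for 66.5%. For ekl-1 this share was 98.2%, and 24 of the 2794 genes of the class were called higher by edgeR. The median log2 fold change of the 9 genes was -2.08, beside -1.75 for the class and -1.17 for all siRNA genes. A list of 22 genes expressed in the germ line had a median of -2.25, and all 22 were lower. When scaled by the trimmed mean of M-values (TMM), 17 of the 22 were lower, against 32.5% of all siRNA genes and 57.1% of the class.

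The 9 genes as a set summed to 525 and 385 normalised siRNA counts in depleted animals, against 1865 and 1648 in control animals. The mean was 455 ± 99.2 (SD, n = 2) in depleted and 1757 ± 153 (SD, n = 2) in control animals, 3.86-fold lower without overlap. An exact two-sided permutation test gave p = 0.333, the smallest value that 2 libraries against 2 can give. As a share of all siRNA reads, a quantity that needs no scaling between libraries, the 9 genes held 0.0748% and 0.0707% in depleted animals and 0.187% in each control library.

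The share of ekl-1 within the siRNA of the 9 genes also needs no scaling. This gene was singled out because it alone did not fall in these PIR-1 libraries. Its share there restates that difference and is no further support for it. The share was 15.0% and 14.8% in depleted animals, against 3.41% and 3.30% in control animals (exact permutation p = 0.333, the smallest possible). Depleted and control libraries were thus far apart in the balance between ekl-1 and the other 8 genes, and libraries of a group were nearly equal. In the deletion experiment the same share lay between 4.50% and 5.06% in all 6 libraries.

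**Figure D3:**
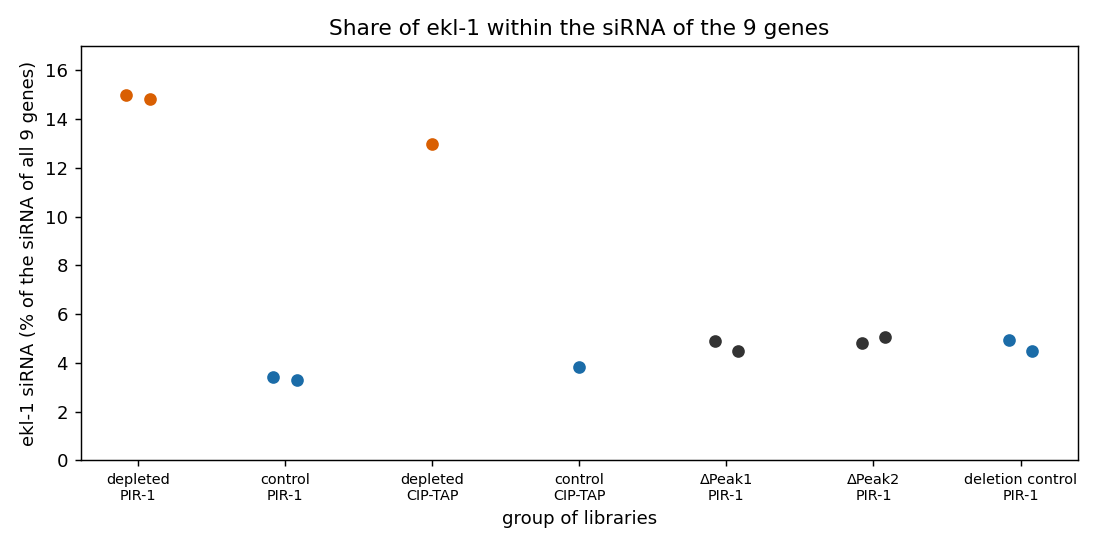
Percent of the summed siRNA of the 9 genes that belongs to ekl-1, with 1 point for each of the 12 libraries. The 3 depleted libraries lie between 13.0% and 15.0%, and the 9 other libraries between 3.30% and 5.06%.

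The size of these differences depended on the library scaling, and for mut-16 and ekl-1 the call did too. The median log2 fold change of all features was -1.39 with the authors' denominator and -0.28 with TMM, which centres most features on no change. With TMM, 7 of the 9 genes were lower, against 32.5% of all siRNA genes and 57.1% of the class CSR,Gender_neutral. Of all siRNA genes, 4147 were lower and 3848 higher with TMM, compared with 7150 lower and 1377 higher under the authors' denominator. The log2 fold change of mut-16 with TMM was -0.31 (adjusted p = 0.1382 by edgeR) and ekl-1 was higher, at 1.33 (adjusted p = 6.178e-10 by edgeR). Scaled to the summed siRNA of all genes, 8 were lower, against 43.8% of all siRNA genes and 79.6% of the class. There ekl-1 was higher, at 0.79 (adjusted p = 0.002093 by edgeR). Scaled to summed miRNA, 8 were lower, against 58.7% of all siRNA genes and 93.3% of the class, and ekl-1 did not pass. The median of the 9 genes was below that of all siRNA genes, at -2.08 beside -1.17 under the denominator and -0.95 beside -0.05 with TMM. A scaling shifts all genes by nearly the same amount, so this gap could hardly differ between them. The median of the class of the 9 genes was nearer to theirs, at -1.75 under the denominator and -0.63 with TMM.

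**Figure D4:**
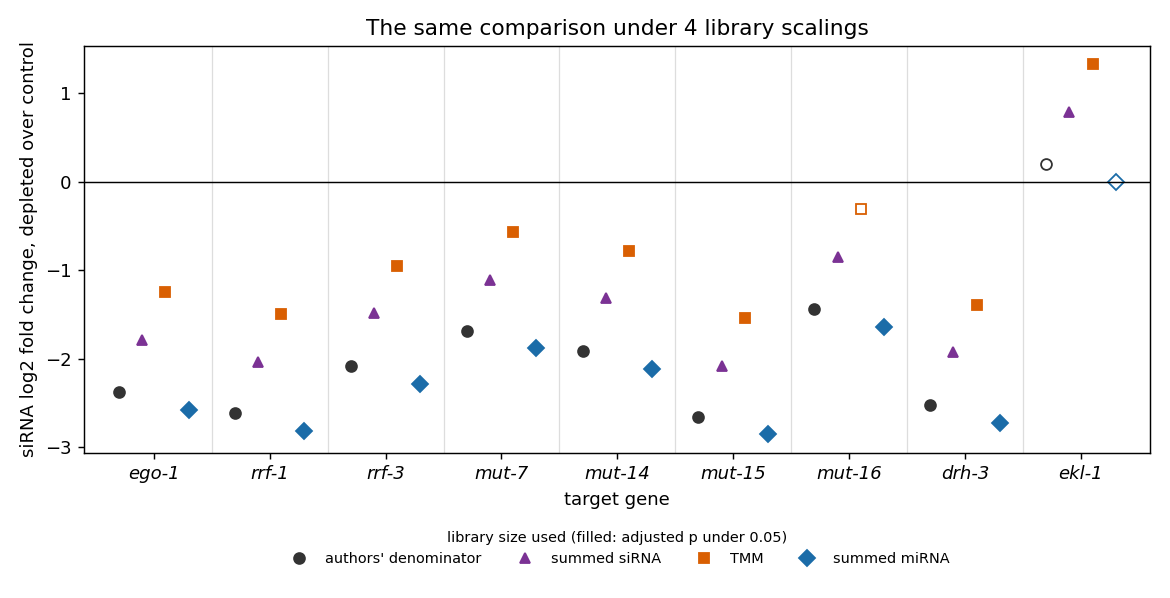
siRNA log2 fold changes of the 9 genes, depleted over control, with the library size taken from the authors' denominator, the summed siRNA, TMM or the summed miRNA, and filled symbols where the adjusted p was under 0.05. Scaling moves all 9 genes together, from -2.66 to -1.54 for mut-15 between the denominator and TMM. The place of ekl-1 above the other 8 therefore could not change with it.

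Of the germline small RNAs examined, the miR-35 family and type I piRNAs were also lower in depleted animals. The siRNAs taken as linked to sperm overlapped between the groups. The miR-35 family of germ line and embryo (7 of 8 listed members found) summed to 10904 to 16155 normalised counts in depleted animals and 96713 to 99948 in control animals. Type I piRNAs, germline small RNAs that load onto the Argonaute PRG-1, summed to 11562 to 12892 in depleted and 326582 to 389609 in control animals. The study reports that ATTF-6 itself is needed for type I piRNAs and their capped precursors. The piRNA sum is therefore not a measure of germline content alone. Abundant somatic miRNAs (3 of 4 found) summed to 979326 to 1156830 in depleted animals and 892903 to 942815 in control animals, the glial miR-228 to 6251 to 6944 and 4459 to 4657, and the neuronal lsy-6 (1 of 2 listed found) to 36.6 to 78.2 and 77.4 to 79.3. The siRNAs of the 1098 genes that the tables name ALG, taken as linked to sperm, summed to 8221 to 10059 and 9431 to 10543. None of the miRNAs found was at 0 in either group. The muscle miRNA miR-1 was not analysed here. Their part in the siRNA differences was not tested.

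The 26G siRNAs of the same genes were sparse, with 2 to 56 counts per gene and library in the depletion experiment. Summed over the 9 genes, they came to 15.3 and 14.8 normalised counts in depleted animals, against 38.1 and 38.0 in control animals, 2.53-fold lower (exact permutation p = 0.333, the smallest possible). By edgeR, 5 of the 9 genes (55.6%) were lower, against 26.4% of all 26G genes and 54.6% of all features, and none was higher. Lower 26G values were also called for 10 of 23 other genes of siRNA production and 6 of 20 germline-expressed genes. For ego-1 the 26G normalised counts were 2.07 and 2.66 in depleted and 7.13 and 8.54 in control animals (log2 fold change -1.71 ± 0.19, SE, n = 2 each, adjusted p = 0.0001111 by edgeR). For rrf-1 they were 0.413 and 2.18 in depleted and 5.35 and 6.29 in control animals (log2 fold change -2.20 ± 0.78, SE, n = 2 each, adjusted p = 3.337e-05 by edgeR), where the lower depleted value rests on 2 counts. The other called genes were mut-7 (-1.95), mut-15 (-1.78) and rrf-3 (-1.64). The values of mut-16 (-0.83), drh-3 (-0.89), mut-14 (-0.61) and ekl-1 (0.53) did not pass. These calls were not stable: DESeq2 called 0 of the 9, none at an unadjusted p under 0.05, and with TMM 0 were lower and ekl-1 was higher. Without control library 1, edgeR called 3, with mut-15 (adjusted p = 0.059) and rrf-3 (adjusted p = 0.20) lost, and mut-15 was also lost without depleted library 2 and rrf-3 without depleted library 1. The 26G share of all siRNA reads at the 9 genes was 3.26% ± 0.61 in depleted and 2.13% ± 0.18 in control animals, beside 6.34% ± 0.72 in depleted and 4.53% ± 0.48 in control animals for all genes (SD, n = 2 each).

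The CIP-TAP libraries, which had no replicate, were meant to clone capped RNAs, and how siRNA reads entered them was not tested. In these libraries the siRNA of the 9 genes summed to 298 normalised counts in the depleted and 1185 in the control library. The ratio was 3.98-fold lower (3.73 to 4.24, exact 95% interval for counting error alone). With the authors' denominator, at least 2-fold lower values were found for 8 of the 9 genes, against 55.0% of all siRNA genes. The greatest ratios were those of rrf-1, with 16.03 in the depleted and 141 in the control library (8.79-fold lower, 6.76 to 11.6), and drh-3, with 18.4 and 135 (7.32-fold lower, 5.72 to 9.50). Lower by 5.51-fold was ego-1, with 24.97 and 138, and by 5.24-fold mut-15, with 33.6 and 176. Between these and the rest lay mut-7, with 34.96 and 158, at 4.52-fold. Smaller ratios were those of mut-14 (43.9 and 146, 3.32-fold lower), mut-16 (48.9 and 144, 2.94-fold lower) and rrf-3 (38.6 and 102, 2.65-fold lower). As in the PIR-1 libraries, ekl-1 had the smallest ratio, with 38.6 in the depleted and 45.6 in the control library (1.18-fold lower, 0.956 to 1.46). With the authors' denominator this interval includes equal levels, but it does not cover the choice of library size. The share of ekl-1 in the siRNA of the 9 genes was 13.0% in the depleted and 3.85% in the control library. The 26G siRNA of rrf-1 went the other way, with 31 counts in the depleted and 6 in the control library, while that of mut-7 had 0 counts in the depleted and 46 in the control library, at least 11.6-fold lower taking 3 counts per library as the floor.

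In the deletion strains no difference in the siRNAs of the 9 genes was called. By edgeR over 31462 features, 0 of the 9 passed in ΔPeak1 animals, against 0.337% of all siRNA genes, and 0 of the 9 in ΔPeak2 animals, against 0.617%. None had an unadjusted p under 0.05 in either comparison, and DESeq2 also called 0 in each. The log2 fold changes ran from -0.11 (mut-7) to 0.11 (mut-15) in ΔPeak1 animals and from -0.22 (mut-14) to -0.02 (mut-15) in ΔPeak2 animals. Both comparisons share the same control libraries.

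Among the polymerase genes, ego-1 had 319 and 296 normalised siRNA counts in ΔPeak1 animals and 307 and 276 in ΔPeak2 animals, against 332 and 327 in control animals. The libraries of both deletions lay below those of the control, with log2 fold changes of -0.10 ± 0.06 in ΔPeak1 and -0.18 ± 0.08 in ΔPeak2 animals (SE, n = 2 each) that did not pass the test. For rrf-1 the counts were 321 and 262 in ΔPeak1 animals and 303 and 258 in ΔPeak2 animals, against 292 and 286 in control animals, with overlap in both comparisons. For rrf-3 they were 140.2 and 122 in ΔPeak1 animals and 137 and 125 in ΔPeak2 animals, against 138 in each control library. The deletion libraries of each strain spread more widely than the controls at all 3 polymerase genes.

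The mutator gene mut-7 had 245 and 219 normalised siRNA counts in ΔPeak1 animals and 232 and 237 in ΔPeak2 animals, against 252 and 248 in control animals. For mut-14 they were 145 and 144 in ΔPeak1 animals and 146 and 113 in ΔPeak2 animals, against 139 and 164 in control animals. For mut-15 they were 264 and 232 in ΔPeak1 animals and 236 and 216 in ΔPeak2 animals, against 224 and 234.7 in control animals. Of these 3, only mut-7 had deletion libraries that lay entirely below the control libraries, in both strains. For mut-16 the counts were 187 and 152 in ΔPeak1 animals and 149 in each ΔPeak2 library, against 172 and 169 in control animals. The cofactor gene drh-3 had 159 and 141 in ΔPeak1 animals and 146 and 139 in ΔPeak2 animals, against 165 and 157 in control animals. For ekl-1 they were 91.9 and 73.9 in ΔPeak1 animals and 83.6 and 80.7 in ΔPeak2 animals, against 89.0 and 81.2 in control animals. Both ΔPeak2 libraries lay below both control libraries at mut-16 and drh-3, while the groups overlapped for the same genes in ΔPeak1 animals and for ekl-1 in both strains.

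**Figure D5:**
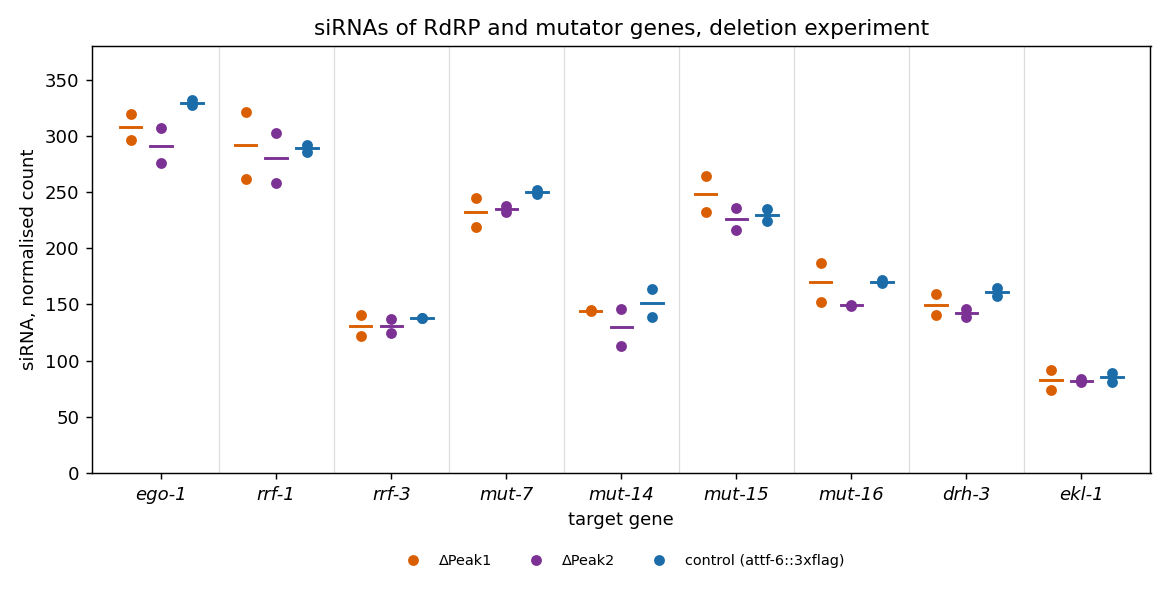
Normalised siRNA counts of the 9 genes in the ΔPeak1, ΔPeak2 and control libraries of the deletion experiment, with 1 point for each library and bars for the means of 2. Most groups overlap or nearly touch, as at ekl-1 (91.9 and 73.9, 83.6 and 80.7, 89.0 and 81.2).

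Both libraries lay below both control libraries at 2 of the 9 genes in ΔPeak1 animals, against 17.8% of all siRNA genes, and at 5 of the 9 in ΔPeak2 animals, against 31.7%. The median ΔPeak2 log2 fold change was nevertheless similar, at -0.092 for the 9 genes, -0.086 for all siRNA genes and -0.100 for the class CSR,Gender_neutral. The summed siRNA of the 9 genes was 1757 ± 162 in ΔPeak1 animals and 1667 ± 103 in ΔPeak2 animals, against 1804 ± 1.98 in control animals (SD, n = 2 each). The log2 differences were -0.04 for ΔPeak1 (exact permutation p = 1) and -0.11 for ΔPeak2 (exact permutation p = 0.333, the smallest possible). No direct difference between ΔPeak1 and ΔPeak2 passed for any of the 18 features by edgeR, with log2 differences for the siRNAs between -0.02 (mut-7) and 0.19 (mut-16). The 26G siRNAs, with 4 to 42 counts per gene and library, gave 0 called of 9 in ΔPeak1 animals, against 0% of all 26G genes, and 0 of 9 in ΔPeak2 animals, against 0.0502%, with none at an unadjusted p under 0.05 and 0 by DESeq2. With 2 libraries per group, a difference within the spread shown here was not detectable, which does not show that the strains are equal.

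Other genes of siRNA production were examined as a list of 25 tested siRNA targets, of which 20 were lower and 2 higher in depleted animals, against 56.0% and 10.8% of all siRNA genes. With TMM 15 were lower and 5 higher, against 32.5% and 30.1% of all siRNA genes. By DESeq2 14 were lower and 5 higher, against 25.4% and 19.4%. The lowest log2 fold changes were those of eri-7 (-3.81), part of a helicase made by joining its RNA with that of eri-6, smut-1 (-3.37), a helicase gene related to mut-14, and rde-4 (-2.96), the double-stranded RNA-binding partner of Dicer. The genes called higher were eri-5, with 59.5 and 35.6 normalised siRNA counts in depleted animals, against 14.1 and 13.3 in control animals, and eri-3, with 240.2 and 201 against 152 and 139.8. Both encode components of the complex in which RRF-3 makes 26G siRNAs. Their log2 fold changes were 1.79 ± 0.37 for eri-5 and 0.60 ± 0.14 for eri-3 (SE, n = 2 each, adjusted p = 4.219e-10 and 0.02328 by edgeR). With miRNA scaling eri-3 did not pass (0.39, adjusted p = 0.2273 by edgeR). Next among the called genes was rde-10 (-0.80), which did not pass with summed siRNA scaling (-0.20, adjusted p = 0.4615 by edgeR) or with TMM, where its value was above 0 (0.33, adjusted p = 0.2813 by edgeR). Values for the 3 genes that did not pass, named after they were seen, were -0.20 for rde-11, 0.00 for eri-6 and 0.37 for rrf-2, a further polymerase gene, and all 3 were higher with TMM. Of the other siRNA production genes named here, rde-4 and eri-5 are in the class CSR,Gender_neutral, like the 9 genes.

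The siRNA profiles nearest to that of the 9 summed genes over the 10 PIR-1 libraries were found among 6922 other siRNA targets, by the root mean square difference of centred log2 values. They were those of brc-2 (0.027), uso-1 (0.039), cnx-1 (0.042), smc-6 (0.047) and mel-28 (0.050), where the median of all candidates was 0.397. All 5 belong to the class CSR,Gender_neutral. For brc-2, the mean siRNA level was 10.7 normalised counts in depleted, 42.2 in control, 42.3 in ΔPeak1, 39.2 in ΔPeak2 and 42.98 in deletion control animals. Among the 9 genes, mut-7 was nearest to their sum (0.108) and ekl-1 the farthest (0.736).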

How the data were processed

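Small RNA libraries were made from whole adults with PIR-1 (10 libraries) or CIP-TAP (2 libraries). The authors trimmed reads with Trim Galore and aligned them to the WormBase WS279 genome and exon junctions with Bowtie, without mismatches. They assigned reads to features with BEDTools, and versions are not given in the sources used here. How siRNA and 26G siRNA reads were told apart is likewise not given. Deposited values are estimated counts of reads for each feature, some of them fractional, which were rounded for tests. The deposited normalised signal is the count divided by a mapped-read constant of the authors (the denominator, recovered from both columns) and multiplied by 1000000. Counts summed to between 1.67 and 4.06 times the denominator, so which reads entered it is unknown.

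Groups followed the labels. The 9 genes, the comparison lists and the named-gene rule were chosen with earlier results of these data known. The rule names the 9 genes, the 3 lowest and 3 highest called changes of a list of other siRNA production genes, and the 5 nearest profiles among genes whose mean normalised count reached 10. Features were tested with edgeR 4.0.16 (quasi-likelihood F test) in R 4.3.3, with the denominator as library size, a minimum mean normalised count of 0.5 and Benjamini-Hochberg adjustment over all kept features at 0.05. The depletion fit held 4 libraries and the deletion fit 6. The SE of a log2 fold change comes from the spread of log2(normalised count + 0.5) between libraries. Sums were compared by exact two-sided permutation tests. CIP-TAP values have exact 95% intervals and no test. Intervals and floors (3 counts) cover counting error only, since PCR copies were not told apart. Alternatives were TMM, summed miRNA or summed siRNA as library size, no filter or a minimum of 5, DESeq2 1.42.0, all 10 PIR-1 libraries in 1 fit, a replicate block and leaving out each library. The edgeR fit was tested on simulated data. Gene positions came from Ensembl release 115 (WBcel235), matched by gene identifier for 19080 of 19083 siRNA genes. Summaries used Python 3.11.15, pandas 2.3.3 and scipy 1.17.1, and figures matplotlib 3.10.9.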

Additional observations from a re-analysis of the deposited data

How the results depend on the processing

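The depletion siRNA calls were stable in number, at 8 of 9 genes in 11 of the 12 alternatives, among them leaving out any library, and at 9 with summed siRNA scaling. Under TMM and DESeq2, 1 of the 8 was ekl-1 as higher (1.33 and 1.24), and mut-16 was lost (-0.31 and -0.40, adjusted p = 0.1382 by edgeR and 0.1386 by DESeq2). The 26G calls in the depletion depended on the setting. They numbered 5 with the authors' denominator, 0 with DESeq2, 1 with TMM, 2 with summed siRNA scaling, 1 with a minimum of 5 (where 1 of 9 genes was tested) and 3 to 5 when a library was left out. The 3 calls were without control replicate 1. The 26G values rest on few counts, and the cause of these changes was not tested. Among uncalled 26G values of the depletion, drh-3, mut-14 and mut-16 turned to 0.22, 0.51 and 0.29 with TMM and to 0.11, 0.49 and 0.19 with DESeq2. When a library was left out, ekl-1 ran from -0.050 to 0.41 for siRNA (lowest without depleted replicate 1) and from -0.31 to 1.61 for 26G siRNA (lowest without control replicate 1).

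In the deletion strains no setting called any of the 9 genes, but small values changed sign. For ΔPeak1, mut-16 turned to 0.028 with TMM and 0.024 with DESeq2, and rrf-1 to -0.019 with summed siRNA scaling. When a library was left out, the ΔPeak1 values ran from -0.20 to 0.11 for ekl-1, -0.18 to 0.061 for mut-14, -0.16 to 0.13 for mut-16, -0.14 to 0.15 for rrf-1, -0.18 to 0.026 for rrf-3 and -0.13 to 0.054 for the sum of the 9 genes, the highest without ΔPeak1 replicate 2 except for mut-14 (control replicate 2). For ΔPeak2, the values turned to 0.064 (ekl-1), 0.094 (mut-15), 0.027 (mut-7), 0.072 (rrf-1), 0.045 (rrf-3) and 0.0029 (sum of the 9 genes) with TMM. With DESeq2 they turned to 0.081 (ekl-1), 0.11 (mut-15), 0.043 (mut-7), 0.089 (rrf-1) and 0.062 (rrf-3), and with summed siRNA scaling to 0.00098 (ekl-1), 0.030 (mut-15) and 0.0084 (rrf-1). When a library was left out, they ran from -0.12 to 0.017 for ekl-1, -0.087 to 0.039 for mut-15 and -0.16 to 0.067 for rrf-1. With miRNA scaling, 4 of the 9 siRNA genes had an unadjusted p under 0.05 in ΔPeak2 animals and none passed adjustment.

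The log2 ratio of the summed siRNA in the CIP-TAP libraries was -1.99 with the authors' denominator, -1.50 with summed counts and -2.75 with summed miRNA as library size. Ratios of single genes shift by the same amount. The CIP-TAP interval of ekl-1 and the 8 genes at least 2-fold lower were computed with the authors' denominator alone. For the PIR-1 depletion libraries the log2 ratio of the summed siRNA was -1.95, and -0.82 with TMM. Same-numbered libraries deviated together in the depletion experiment (correlation 0.31) but not in the deletion experiment (-0.03 to -0.07), and the labels give nothing beyond a number, so they were not treated as pairs. With a replicate block, the calls stayed at 8 siRNA and 5 26G genes in the depletion and 0 in both deletions, and the summed siRNA differences were -1.96, -0.04 (ΔPeak1) and -0.12 (ΔPeak2).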
